A study of Mus musculus with 3 samples.

Results

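The 56 genes described here act in cell proliferation and chromosome segregation, and 54 of them were measured among 19518 genes. They were chosen by name as well known components of DNA replication, mitosis and cell cycle control, with earlier results of these data known. Each was read from a probe set whose sole annotated gene it is, the one with the highest mean log2 intensity where there were several. Cdkn1a, whose probe set lists more than 1 gene, and Ccnb1 were not analysed here. The arrays compare CD4+CD8- thymocytes of PLZFlu/lu, PLZF+/lu and PLZF+/+ mice, with 1 array per genotype and 3 in all. PLZF is a transcription factor encoded by Zbtb16 that directs the development of natural killer T (NKT) cells, and luxoid (lu) is a point mutation that leaves PLZFlu/lu animals PLZF-deficient, while PLZF+/lu animals keep 1 wild-type allele. All mice were female C57Bl/6 animals, called adult in the labels and given there an age of 3 to 4 weeks, and per the study's methods all genotypes also lacked Rag1 and carried the transgenes of a Vγ1Vδ6.4 T cell receptor, which drives many thymocytes into the γδNKT lineage. The gate is defined by CD4 and CD8, so it can hold cells without PLZF, and how many animals stand behind each array was not stated. Genotype and array cannot be told apart with 1 array each, no test was run, and every difference below is a rule of size without a replicate check.

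A dividing cell commits to replication in G1, when cyclin D and cyclin E kinases release the E2F transcription factors, and E2F then drives genes for DNA synthesis. Genes for mitosis follow later in the cycle. Their promoters often hold a cell cycle genes homology region (CHR), which is bound by the repressive DREAM complex in resting cells and by the activating B-MYB and FOXM1 complexes later, and CCAAT boxes, which are bound by the factor NF-Y. In a resting cell both sets are low. In the thymus most division occurs before and just after the first receptor is expressed, and mature single-positive cells divide little. In a bulk sample, fewer dividing cells and less RNA per dividing cell cannot be told apart.

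Zbtb16 had an intensity of 2890 in PLZFlu/lu, 6143 in PLZF+/lu and 8796 in PLZF+/+ cells, in the order of the labels, although the luxoid transcript can still hybridise. Cd3e, a component of the T cell receptor complex, lay between 10550 and 11334 on the 3 arrays. Of 7 measured T cell markers PLZF+/lu was highest for 2 (Cd3e and Cd3g), lowest for 2 (Cd3d and Cd4) and between for 1 (Cd2). Of all measured genes 13.0% were highest and 11.4% lowest there. Cd4 was at 7191 in PLZFlu/lu, 6208 in PLZF+/lu and 6401 in PLZF+/+ cells. The summed intensity of 6 γδNKT markers, led by Zbtb16, was 4767 in PLZFlu/lu, 8665 in PLZF+/lu and 12372 in PLZF+/+ cells. Among them Klrb1c, the gene of the NK1.1 marker of mature NKT cells, was at 29.5 on all arrays. The 95th percentile of 1033 olfactory receptor probe sets, which serves here as the background of the arrays, was 108. Median intensities were 159.7 in PLZFlu/lu, 161.8 in PLZF+/lu and 160.0 in PLZF+/+. Exactly equal values are common in these data, since 46.8% of all measured genes have the same value on all 3 arrays, and of the 54 genes 11 do (20.4%). The step that made values equal was not stated.

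The PLZF+/lu array was the low one for this set of genes. Its value lay strictly below both other arrays for 33 of 54 genes (61.1%), against 11.4% of all measured genes, and strictly above both for 0, against 13.0%. It lay between the others for Ccnd2, Mcm2 and Smc4, was equal to PLZFlu/lu for Ccnd3, E2f1, Cdkn2c, Mcm3 and Mcm5, and was equal to PLZF+/+ for Ccne1 and Cdkn1b. For 14 of the 33 genes PLZFlu/lu and PLZF+/+ had exactly the same value (42.4%), against 29.4% of the 2234 genes that were lowest in PLZF+/lu among all. Without genes below the olfactory receptor level on all arrays, a closer background, 31 of 50 genes were strictly lowest in PLZF+/lu, against 17.3% of 11973. Counts were made at 2 sizes of difference, 2-fold and a smaller one of 0.32 on the log2 scale. By more than the smaller, PLZF+/lu was below both others for 11 of 54 genes (20.4%), against 0.338% of all measured genes. These were Bub1, E2f2, Mki67, Ccna2, Ncapg, Ccnb2, Top2a, Bub1b, Kif11, Rrm2 and Ube2c, and they form 16.7% of the 66 genes of the whole array with that pattern. The PLZF+/lu values of Bub1 and Ncapg are below the olfactory receptor level, and with values raised to that level the count was 10, without Ncapg, against 0.292% of all genes. The differences are small, with 5 genes past 1.5-fold between any pair of arrays and 21 past 0.32 on the log2 scale, or 4, without Bub1, and 20 with values raised to that level.

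**Figure D1:**
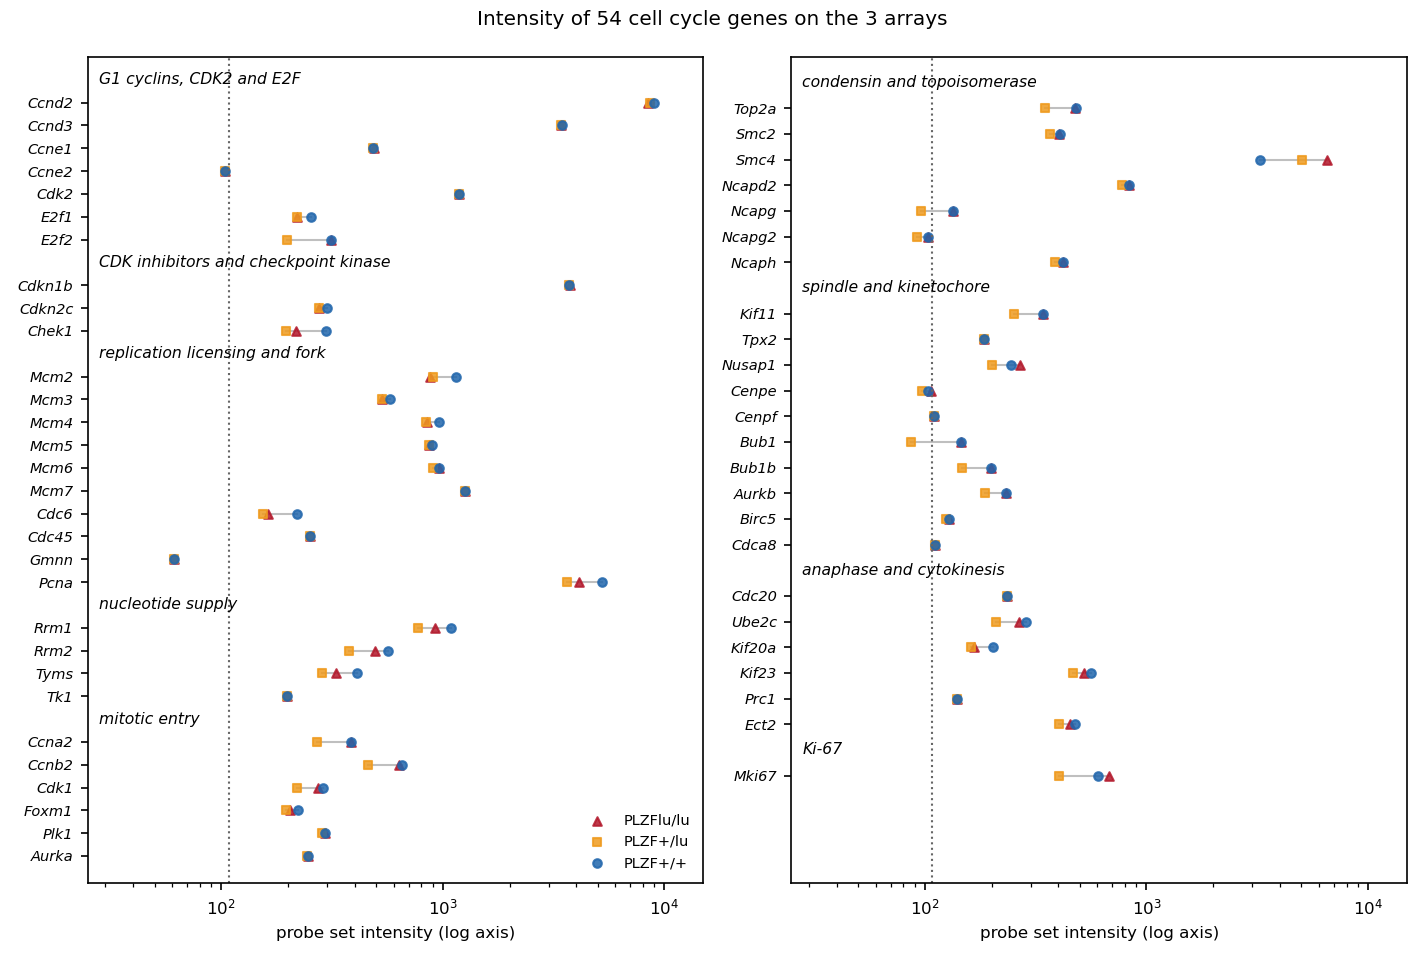
Probe set intensity (log axis) of each of the 54 genes in PLZFlu/lu (triangles), PLZF+/lu (squares) and PLZF+/+ cells (circles), by role, with 1 array per genotype. Symbols that coincide are equal or nearly equal values, the dotted line is the olfactory receptor level of 108, and the squares lie at the left end for 33 genes.

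Against PLZF+/+, PLZF+/lu was lower by more than 0.32 on the log2 scale for 19 of 54 genes, against 2.61% of all measured genes, and higher for Smc4 alone, against 1.31%. Against PLZF+/lu, PLZFlu/lu was higher by more than 0.32 on the log2 scale for 13 genes, against 1.16% of all genes, and lower for 0, against 1.18%. These comparisons share the PLZF+/lu array. By more than 0.32 on the log2 scale, PLZFlu/lu was higher than PLZF+/+ for 1 gene (Smc4), against 1.73% of all genes. It was lower for 4 (Chek1, Cdc6, Mcm2 and Pcna), against 2.99%. At any size PLZFlu/lu was lower than PLZF+/+ for 23 genes (42.6%), against 24.9% of all, and higher for 6 (11.1%), against 16.9%. The values were equal for 25 (46.3%), against 58.1% of all. On the log2 scale the median difference of the 54 genes was 0.00 for PLZFlu/lu over PLZF+/+, -0.16 for PLZF+/lu over PLZF+/+ and 0.08 for PLZFlu/lu over PLZF+/lu, and that of all measured genes was 0.00 in each. Past 2-fold, the study's own threshold, Smc4 was higher in PLZFlu/lu than in PLZF+/+ cells, against 0.159% of all genes, and 0 genes of the set were lower, against 0.272%.

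**Figure D2:**
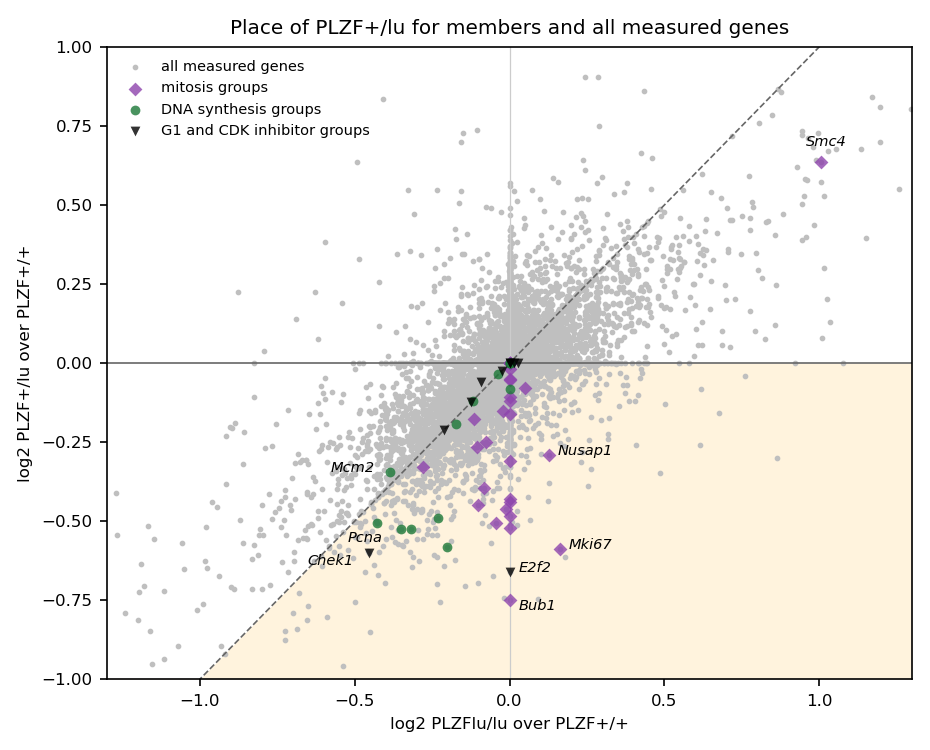
Log2 difference of PLZF+/lu over PLZF+/+ (vertical) against that of PLZFlu/lu over PLZF+/+ (horizontal) for the 54 genes (coloured) and all measured genes (grey, of which 56 lie outside the axes). Points in the shaded area are lower in PLZF+/lu than on both other arrays, and 33 of the 54 genes lie there, while Smc4 lies far from the rest at the upper right.

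The PLZF+/+ array stood at the other end. It was strictly highest for 23 of 54 genes (42.6%), against 18% of all measured genes, and above both others by more than 0.32 on the log2 scale for 4 (7.41%: Mcm2, Chek1, Cdc6 and Pcna), against 1.64%. PLZFlu/lu was strictly highest for 6 genes (11.1%), against 10.5% of all. By role, PLZF+/lu was strictly lowest for 24 of 30 mitosis genes (80.0%) and for 7 of 14 DNA synthesis genes (50%), and PLZF+/+ was strictly highest for 9 of the same 30 (30.0%) and 9 of the same 14 (64.3%). Whether the roles differ was not tested.

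**Figure D3:**
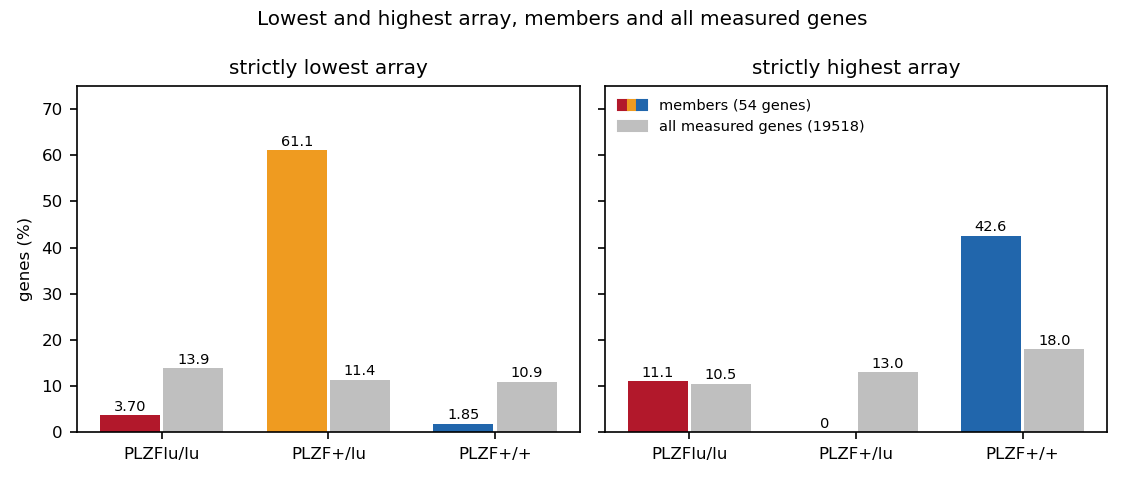
Share of genes (percent) for which each array was strictly the lowest (left) or strictly the highest (right), for the 54 genes (coloured bars) and all 19518 measured genes (grey bars). PLZF+/lu was lowest for 61.1% of the 54 genes and 11.4% of all, and PLZF+/+ was highest for 42.6% and 18%.

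Promoter stretches are shown for the 6 genes of the set with the widest range over the arrays that have a RefSeq window, to set the CHR and CCAAT letters of Mki67 beside 5 promoters of genes with other roles, among them a further mitosis gene, Bub1. Each holds the 250 bases before a transcript start of the GRCm38.p6 RefSeq annotation, 5′ to 3′ on the gene's strand, and capitals mark the CHR and CCAAT letters, while the GC box, also searched, is left in lower case.
Mki67, chr7:135716380-135716629, minus strand: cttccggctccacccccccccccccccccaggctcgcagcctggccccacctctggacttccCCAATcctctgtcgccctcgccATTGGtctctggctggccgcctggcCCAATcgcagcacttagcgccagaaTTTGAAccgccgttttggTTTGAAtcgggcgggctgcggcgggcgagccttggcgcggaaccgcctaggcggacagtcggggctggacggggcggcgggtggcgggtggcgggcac
Bub1, chr2:127831860-127832109, minus strand: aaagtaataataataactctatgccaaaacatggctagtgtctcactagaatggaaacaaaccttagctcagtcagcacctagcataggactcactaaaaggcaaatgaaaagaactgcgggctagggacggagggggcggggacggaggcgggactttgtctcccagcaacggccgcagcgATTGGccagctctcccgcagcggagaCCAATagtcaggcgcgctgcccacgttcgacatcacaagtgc
E2f2, chr4:136172024-136172273, plus strand: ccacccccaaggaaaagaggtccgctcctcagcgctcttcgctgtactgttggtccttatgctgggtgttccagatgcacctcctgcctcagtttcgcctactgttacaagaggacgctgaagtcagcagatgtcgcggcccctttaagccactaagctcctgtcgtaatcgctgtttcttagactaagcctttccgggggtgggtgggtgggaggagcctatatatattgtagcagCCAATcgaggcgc
Chek1, chr9:36726659-36726908, minus strand: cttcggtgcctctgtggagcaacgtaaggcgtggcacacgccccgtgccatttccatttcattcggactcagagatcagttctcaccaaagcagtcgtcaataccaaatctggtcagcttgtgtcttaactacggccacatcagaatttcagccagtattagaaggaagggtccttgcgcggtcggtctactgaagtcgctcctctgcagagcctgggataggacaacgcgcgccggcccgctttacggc
Rrm2, chr12:24708004-24708253, plus strand: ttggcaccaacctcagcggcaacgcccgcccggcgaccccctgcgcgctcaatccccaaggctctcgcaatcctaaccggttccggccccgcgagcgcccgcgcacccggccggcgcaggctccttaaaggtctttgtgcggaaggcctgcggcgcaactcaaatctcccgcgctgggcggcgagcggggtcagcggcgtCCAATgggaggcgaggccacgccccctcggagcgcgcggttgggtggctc
Pcna, chr2:132253181-132253430, minus strand: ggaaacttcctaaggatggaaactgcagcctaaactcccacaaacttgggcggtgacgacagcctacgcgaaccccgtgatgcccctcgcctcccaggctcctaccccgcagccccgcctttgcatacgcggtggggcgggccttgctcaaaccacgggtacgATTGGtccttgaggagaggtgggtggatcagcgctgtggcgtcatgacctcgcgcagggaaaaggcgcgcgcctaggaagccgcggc
Mki67, the gene of the proliferation marker Ki-67, has the CHR letters TTTGAA starting at -116 and -98 from the transcript start and 3 CCAAT boxes at -188, -166 and -141, the middle one on the reverse strand as ATTGG. Bub1 has CCAAT boxes at -68 and -42, and Rrm2 and Pcna have 1 each at -50 and -87. E2f2, for which 1 of 2 windows is shown, has a CCAAT box at -13, while its E2F letters TTTGGCGC begin at base 40 after the start, beyond the printed stretch, and the window not shown holds its CHR letters. None of the letters searched is in the window of Chek1. Over windows of 300 bases, from 250 before to 50 after the start, 46 of the 56 genes had an entry, 7 of them with 2 windows, and a motif in any window counted.

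The CHR letters TTTGAA, searched on both strands, were in windows of 19 of 25 mitosis genes (76.0%) and 2 of 12 DNA synthesis genes (16.7%), against 20.2% of 27025 genes with a window. CCAAT was in 84.0% of the mitosis genes and 75% of the DNA synthesis genes, against 41.1% of all. A CHR together with a CCAAT box was in 72.0% of the mitosis genes, 16.7% of the DNA synthesis genes and 7.97% of all, and in all 5 anaphase and cytokinesis genes with a window. E2F letters (TTTCCCGC, TTTGGCGC, TTTCGCGC or TTTGCCGC) were in 16.0% of the mitosis genes and 41.7% of the DNA synthesis genes, against 2.60% of all. The GC box GGGCGG, which can overlap an E2F motif, was in 82.6% of the 46 genes and 38.2% of all. Among the 15540 measured genes with a window, a closer background, the shares were 17.3% for CHR, 41.7% for CCAAT, 6.89% for both together, 3.49% for E2F and 53.1% for the GC box. Of the genes with a window, 16 of the 28 that were strictly lowest in PLZF+/lu held the CHR letters (57.1%), and 6 of the 16 measured ones that were not (37.5%). These groups mix roles. Among mitosis genes with a window, Cenpf, Cdca8, Cdc20 and Prc1 were not lowest in PLZF+/lu and all held the CHR letters. Ncaph, Nusap1, Cenpe, Bub1 and Birc5 were lowest and lacked them. Outside mitosis, E2f2 was lowest and held them, as did Mcm2 and Cdc45, which were not lowest. In the same split CCAAT was in 75% and 81.2%, the GC box in 75% and 93.8%, and E2F letters in 25% of each, and no difference was tested. These are matches of letters and describe the promoters, not binding.

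The G1 genes were nearly flat, apart from the E2F factors. E2f2, an E2F that activates S phase genes, was at 314 in PLZFlu/lu, 199 in PLZF+/lu and 314 in PLZF+/+ cells. The PLZF+/lu value was 1.58-fold below an equal pair. E2f1, its close relative, was at 219 in PLZFlu/lu, 219 in PLZF+/lu and 253 in PLZF+/+ cells, so here PLZF+/+ was the high array by 1.16-fold. Ccnd2 encodes cyclin D2, a D-type cyclin of T cells, and had 8391 in PLZFlu/lu, 8587 in PLZF+/lu and 8945 in PLZF+/+ cells, within 1.07-fold in all. Ccnd3, cyclin D3, and Ccne1, cyclin E1, spanned 1.02-fold and 1.01-fold over the arrays, and Cdk2, the kinase partner of cyclin E, was at 1188 on each. Ccne2, cyclin E2, was at 104 on all 3 arrays, below the olfactory receptor level.

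The kinase inhibitors differed less than the checkpoint gene. Chek1, the kinase that halts the cycle when replication forks stall, was at 216 in PLZFlu/lu, 196 in PLZF+/lu and 296 in PLZF+/+ cells. Both mutant arrays were low, by 1.37-fold in PLZFlu/lu and 1.52-fold in PLZF+/lu. Cdkn1b, the p27 inhibitor that holds cells in G1, was at 3765 in PLZFlu/lu and 3695 in both PLZF+/lu and PLZF+/+ cells, and a second probe set was at 606 on all arrays. Cdkn2c, the p18 inhibitor of CDK4 and CDK6, was at 275 in PLZFlu/lu, 275 in PLZF+/lu and 299.6 in PLZF+/+ cells, 1.09-fold higher in PLZF+/+.

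Replication genes were higher in PLZF+/+ or equal, and none was higher in either mutant. Pcna, the sliding clamp of DNA polymerase, was at 4116 in PLZFlu/lu, 3646 in PLZF+/lu and 5252 in PLZF+/+ cells. A second probe set of Pcna gave the same order, with 3024 in PLZFlu/lu, 2733 in PLZF+/lu and 3392 in PLZF+/+ cells. Cdc6, which loads the MCM helicase at origins, was at 163 in PLZFlu/lu, 155 in PLZF+/lu and 219.6 in PLZF+/+ cells, so that both mutant arrays were low, by 1.35-fold and 1.42-fold. Mcm2, a subunit of that helicase, was at 873 in PLZFlu/lu, 898 in PLZF+/lu and 1142 in PLZF+/+ cells, and its 2 low values were within 1.03-fold of each other. The other helicase subunits differed little, with ranges of 1.14-fold for Mcm4, 1.09-fold for Mcm3, 1.06-fold for Mcm6 and 1.03-fold for Mcm5, and 1265 on each array for Mcm7. Cdc45, a helicase cofactor, was at 253 on each array, and Gmnn, the inhibitor of licensing, at 61.4 on each, below the olfactory receptor level. The median log2 difference of the 10 genes was -0.08 for PLZFlu/lu and -0.10 for PLZF+/lu over PLZF+/+.

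Genes that supply deoxynucleotides had the lowest PLZF+/lu median of the groups with more than 1 gene. Rrm2, the regulated subunit of ribonucleotide reductase, was at 492 in PLZFlu/lu, 378 in PLZF+/lu and 566 in PLZF+/+ cells. Rrm1, the large subunit of the same enzyme, was at 926 in PLZFlu/lu, 772 in PLZF+/lu and 1086 in PLZF+/+ cells. Tyms, thymidylate synthase, was at 330.0 in PLZFlu/lu, 286 in PLZF+/lu and 412 in PLZF+/+ cells. All 3 genes had the same order, with PLZF+/lu lowest and PLZF+/+ highest, and PLZF+/lu was 1.5-fold, 1.41-fold and 1.44-fold below PLZF+/+. Tk1, thymidine kinase, was at 198 on all arrays, but a second probe set went the other way, with 168 in PLZFlu/lu, 215 in PLZF+/lu and 168 in PLZF+/+ cells. The group's median was -0.22 for PLZFlu/lu and -0.51 for PLZF+/lu over PLZF+/+ on the log2 scale.

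Each of the 6 measured genes of mitotic entry was lowest in PLZF+/lu, against 11.4% of all measured genes. Ccna2, cyclin A2 of S and G2 phase, was at 387 in PLZFlu/lu, 269.5 in PLZF+/lu and 387 in PLZF+/+ cells. Ccnb2, cyclin B2, was at 635 in PLZFlu/lu, 461 in PLZF+/lu and 655 in PLZF+/+ cells. Cdk1, the kinase both cyclins activate, was at 273 in PLZFlu/lu, 219 in PLZF+/lu and 289 in PLZF+/+ cells. For these 3 genes PLZFlu/lu and PLZF+/+ differed by at most 1.06-fold, and PLZF+/lu was 1.44-fold, 1.42-fold and 1.32-fold below PLZF+/+. The range was smaller for Foxm1, a transcription factor of G2 and mitotic genes (1.13-fold), and for the mitotic kinases Plk1 (1.04-fold) and Aurka (1.01-fold).

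Condensin genes divided into Smc4 and the rest. Smc4, a core ATPase subunit of condensin I and II, which compact chromosomes for mitosis, was at 6535 in PLZFlu/lu, 5057 in PLZF+/lu and 3254 in PLZF+/+ cells. It was 2.01-fold higher in PLZFlu/lu and 1.55-fold higher in PLZF+/lu than in PLZF+/+, and it was the one gene of the set that was lowest in PLZF+/+. Smc2, its partner in both complexes, was at 401 in PLZFlu/lu, 366 in PLZF+/lu and 407 in PLZF+/+ cells, with PLZF+/lu low as for most of the set. Ncapg, a condensin I subunit, was at 134 in PLZFlu/lu, 95.9 in PLZF+/lu and 134 in PLZF+/+ cells, and since the PLZF+/lu value is below the olfactory receptor level, the other arrays were at least 1.24-fold higher. Ncapd2 and Ncaph of condensin I were lowest in PLZF+/lu with ranges of 1.08-fold and 1.09-fold, and Ncapg2 of condensin II was below the olfactory receptor level throughout, at 103 in PLZFlu/lu, 92.3 in PLZF+/lu and 103 in PLZF+/+ cells. Top2a, the topoisomerase that untangles sister chromatids, was at 476 in PLZFlu/lu, 348 in PLZF+/lu and 479 in PLZF+/+ cells. PLZF+/lu was 1.37-fold below PLZFlu/lu and 1.38-fold below PLZF+/+, while a second probe set of Top2a stayed below the olfactory receptor level.

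**Figure D4:**
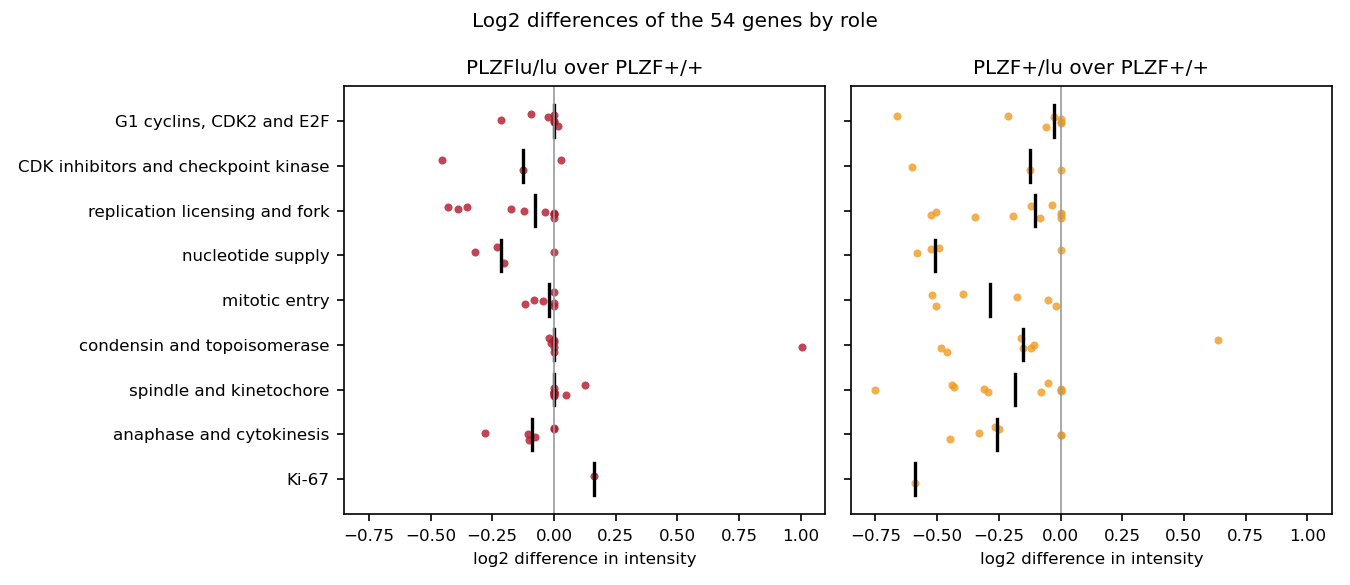
Log2 difference in intensity of each gene (points, spread vertically at random) for PLZFlu/lu over PLZF+/+ (left) and PLZF+/lu over PLZF+/+ (right), by role, with the median of each role as a black line. The medians lie between -0.22 and 0.16 on the left and between -0.59 and -0.03 on the right, and Smc4 is the point at 1.01 on the left and 0.64 on the right.

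Spindle and kinetochore genes were equal in PLZFlu/lu and PLZF+/+ for 8 of 10 (80.0%), against 58.1% of all measured genes, and lowest in PLZF+/lu for 7 (70.0%), against 11.4%. Bub1, a kinase of the spindle checkpoint, was at 146 in PLZFlu/lu, 87.0 in PLZF+/lu and 146 in PLZF+/+ cells. Its PLZF+/lu value lies below the olfactory receptor level, so the other arrays were at least 1.36-fold higher. Bub1b, the checkpoint protein BUBR1, was at 199.5 in PLZFlu/lu, 147 in PLZF+/lu and 199.5 in PLZF+/+ cells. Kif11, the motor that separates the spindle poles, was at 340.2 in PLZFlu/lu, 252 in PLZF+/lu and 340.2 in PLZF+/+ cells. In PLZF+/lu they were 1.36-fold and 1.35-fold below an equal pair. Nusap1, a microtubule binding protein of the spindle, was at 268 in PLZFlu/lu, 200.4 in PLZF+/lu and 245 in PLZF+/+ cells, and here PLZFlu/lu was the highest. Of the chromosomal passenger genes, which correct kinetochore attachment, Aurkb was at 232 in PLZFlu/lu, 187 in PLZF+/lu and 232 in PLZF+/+ cells. Birc5 was at 129 in PLZFlu/lu, 125 in PLZF+/lu and 129 in PLZF+/+ cells. Both Aurkb and Birc5 thus had PLZF+/lu below an equal pair, by 1.24-fold and 1.03-fold, while Cdca8 was at 111 on each array. Tpx2, a spindle assembly factor, and Cenpf were equal on all arrays at 185 and 109.7, and Cenpe, a kinetochore motor, was below the olfactory receptor level with 107 in PLZFlu/lu, 97.5 in PLZF+/lu and 103 in PLZF+/+ cells.

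Genes of anaphase and cytokinesis were lowest in PLZF+/lu for 4 of 6, against 11.4% of all measured genes. The same 4 were highest in PLZF+/+, against 18% of all. Ube2c, the ubiquitin conjugating enzyme of the anaphase-promoting complex, was at 266 in PLZFlu/lu, 209 in PLZF+/lu and 286 in PLZF+/+ cells. Kif20a, a motor of the cleavage furrow, was at 166 in PLZFlu/lu, 161 in PLZF+/lu and 202 in PLZF+/+ cells. Kif23, of the central spindle, was at 521 in PLZFlu/lu, 466 in PLZF+/lu and 561 in PLZF+/+ cells. The 2 mutant arrays were close together for Kif20a, 1.03-fold apart, and farther apart for Ube2c, at 1.27-fold. Ect2, the exchange factor that starts furrowing, had a range of 1.19-fold, while Cdc20, which activates the anaphase-promoting complex, and Prc1, a bundler of the central spindle, were equal on all arrays at 234 and 139.

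Mki67, whose product Ki-67 coats mitotic chromosomes and is absent from resting cells, was at 676 in PLZFlu/lu, 402 in PLZF+/lu and 605 in PLZF+/+ cells. PLZFlu/lu was the highest, 1.12-fold above PLZF+/+ and 1.68-fold above PLZF+/lu, and PLZF+/lu was 1.5-fold below PLZF+/+. Its promoter, printed above, carries the CHR and CCAAT letters of most mitosis genes, as do those of Top2a, Ccnb2, Kif11 and Ube2c, whereas those of Bub1 and Nusap1 lack the CHR letters in this window.

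Wider lists of cell cycle genes were read in the same way. Of 56 measured further mitosis genes, PLZF+/lu was below both other arrays for 22 and above both for 2, against the background of 11.4% and 13.0% given above, and 24 were equal on all arrays. The widest were Cks1b, a cofactor of cyclin kinases, with 621 in PLZFlu/lu, 584 in PLZF+/lu and 1009 in PLZF+/+ cells, then Anln and Pttg1. Anln, anillin of the cleavage furrow, was at 128 in PLZFlu/lu, 107 in PLZF+/lu and 181 in PLZF+/+ cells, its PLZF+/lu value being just below the olfactory receptor level. Pttg1, securin, was at 640.2 in PLZFlu/lu, 801 in PLZF+/lu and 1058 in PLZF+/+ cells, so PLZF+/lu lay between the others, unlike most of the set. Of 53 measured further replication genes, PLZF+/lu was below both for 20 and above both for 0. The widest were Cdca7, Hells and Prim1, and each had PLZF+/lu lowest and PLZF+/+ highest. Cdca7, a cofactor of the Hells remodeller, was at 850.3 in PLZFlu/lu, 694 in PLZF+/lu and 1124 in PLZF+/+ cells. Hells itself was at 166 in PLZFlu/lu, 145 in PLZF+/lu and 229.6 in PLZF+/+ cells, and Prim1, the small primase subunit, at 247 in PLZFlu/lu, 224 in PLZF+/lu and 308 in PLZF+/+ cells. Only 2 of the 109 genes of these wider lists, Cks2 and Knl1, were below both in PLZF+/lu by more than 0.32 on the log2 scale (1.83%), against 0.338% of all measured genes and 20.4% of the 54.

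Of 11 cohesin genes, which hold sister chromatids together and like condensin contain SMC subunits, PLZF+/lu was below both for 4 (36.4%), against 11.4% of all measured genes, and none differed by more than 0.32 on the log2 scale from PLZF+/+ in either mutant. Esco2, which acetylates cohesin in S phase, was at 140.0 in PLZFlu/lu, 117 in PLZF+/lu and 140.0 in PLZF+/+ cells, and Nipbl, which loads cohesin, at 3885 in PLZFlu/lu, 3513 in PLZF+/lu and 3256 in PLZF+/+ cells. The first is a low PLZF+/lu value and the second a graded one. Esco1, a further cohesin acetyltransferase, was at 1456 in PLZFlu/lu, 1302 in PLZF+/lu and 1391 in PLZF+/+ cells. Of 14 quiescence genes, PLZF+/lu lay between the others for 8 (57.1%), against 11.4% of all measured genes, and below both for 1 (7.14%). Tsc22d3, a glucocorticoid-induced gene of resting T cells, was at 762 in PLZFlu/lu, 484 in PLZF+/lu and 295 in PLZF+/+ cells, and Foxp1, a factor of naive T cells, at 4203 in PLZFlu/lu, 3680 in PLZF+/lu and 2815 in PLZF+/+ cells. Both followed the number of luxoid alleles. Tob1, an antiproliferative gene, was at 1329 in PLZFlu/lu, 1332 in PLZF+/lu and 1705 in PLZF+/+ cells, high in PLZF+/+ alone. Of 16 genes of Myc and nucleolar growth, PLZF+/lu was below both for 1 (6.25%), and the widest ranges were those of Fbl, Bop1 and Rrs1. Fbl, fibrillarin, was at 636 in PLZFlu/lu, 776 in PLZF+/lu and 929 in PLZF+/+ cells, and the other two spanned 0.15 and 0.14 on the log2 scale. The 12 measured housekeeping genes had log2 differences between -0.10 and 0.04 for either mutant over PLZF+/+.

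Markers of other thymocytes were set beside these values. The summed intensity of 9 measured of 10 CD4+CD8+ thymocyte markers was 5466 in PLZFlu/lu, 4480 in PLZF+/lu and 3343 in PLZF+/+ cells, led by Cd8b1 with 2958 in PLZFlu/lu, 2263 in PLZF+/lu and 1290 in PLZF+/+ cells. The sum of 6 CD4-CD8- thymocyte markers was 15143 in PLZFlu/lu, 16212 in PLZF+/lu and 15040 in PLZF+/+ cells. Neither sum was lowest in PLZF+/lu, but each is led by a few bright genes, Cd8b1 in the first and Il7r, at 12140 in PLZFlu/lu, 12913 in PLZF+/lu and 11857 in PLZF+/+ cells, in the second. Dntt, the terminal transferase of receptor rearrangement, was at 210 in PLZFlu/lu, 157 in PLZF+/lu and 162 in PLZF+/+ cells. Rag1, which the mice lacked per the study's methods, was at 278 in PLZFlu/lu, 211 in PLZF+/lu and 229 in PLZF+/+ cells. Il2ra, the CD25 chain of the interleukin receptor on early thymocytes, was at 183 in PLZFlu/lu, 148 in PLZF+/lu and 183 in PLZF+/+ cells. Dntt, Rag1 and Rag2, the last below the olfactory receptor level, were the 3 of 9 CD4+CD8+ markers lowest in PLZF+/lu, and 3 lay between the others. Il2ra was the 1 of 6 CD4-CD8- markers lowest in PLZF+/lu, and 3 were highest there. Of all measured genes 11.4% were lowest in PLZF+/lu. Dntt and Rag1 were only 1.03-fold and 1.08-fold below PLZF+/+, and PLZFlu/lu was their high array. Of the measured markers of B cells, myeloid, dendritic, erythroid and thymic epithelial cells, the log2 difference of the summed intensities, PLZF+/lu over PLZF+/+, lay between -0.19 and 0.01. Cd79a and Ms4a1 of B cells, Lyz2, Csf1r and Adgre1 of myeloid cells, Klf1 and Alas2 of erythroid cells and Epcam and Krt5 of thymic epithelium were below the olfactory receptor level on all 3 arrays. Others of the same lists were above it on every array. Cd79b of the B cell list was at 1406 in PLZFlu/lu, 1440 in PLZF+/lu and 1658 in PLZF+/+ cells, and Itgam of the myeloid list at 139 in PLZFlu/lu, 152 in PLZF+/lu and 164 in PLZF+/+ cells. Krt8 of thymic epithelium was at 173 in PLZFlu/lu and 185 in both PLZF+/lu and PLZF+/+ cells. Cd68 (386), Siglech (146), Hemgn (113) and Foxn1 (113) had the same intensity on all arrays. None of these 7 was lowest in PLZF+/lu. The part of cell composition in the low PLZF+/lu values was not tested.

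Smc4 was also read with its neighbours on chromosome 3, which were chosen after its value was seen. In the RefSeq annotation the order is Ift80, Smc4 with the microRNA genes Mir15b and Mir16-2 inside it, Trim59 and Kpna4, and neither microRNA was measured. Ift80, an intraflagellar transport gene, was at 2147 in PLZFlu/lu, 1749 in PLZF+/lu and 1088 in PLZF+/+ cells, 1.97-fold higher in PLZFlu/lu and 1.61-fold higher in PLZF+/lu than in PLZF+/+. Trim59 was at 406 in PLZFlu/lu, 312 in PLZF+/lu and 327 in PLZF+/+ cells, and Kpna4, an importin, at 1756 in PLZFlu/lu and 1626 in both PLZF+/lu and PLZF+/+ cells. Ift80 thus had the order and nearly the size of Smc4, while on the other side Trim59 was 1.24-fold and Kpna4 1.08-fold higher in PLZFlu/lu than in PLZF+/+.

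**Figure D5:**
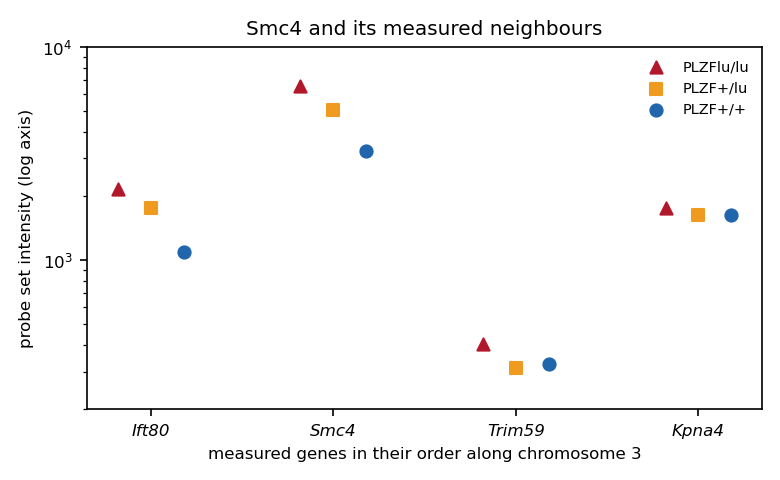
Probe set intensity (log axis) of Ift80, Smc4, Trim59 and Kpna4, in their order along the chromosome, in PLZFlu/lu (triangles), PLZF+/lu (squares) and PLZF+/+ cells (circles), with 1 array per genotype. Ift80 and Smc4 have PLZFlu/lu highest, PLZF+/lu between and PLZF+/+ lowest, and the arrays lie closer together for Trim59 and Kpna4.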

How the data were processed

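The 3 samples, 1 per genotype, were hybridised to Mouse Gene 1.0 ST chips (Affymetrix). The authors processed the scans with GenePattern modules (ExpressionFileCreator, MultiplotPreprocess and Multiplot), removed normalization controls and deposited 24800 linear intensities per array. The submitters' processing notes name the build mm 8, and for background correction and summarisation the method was not given in the sources used here. All value columns carried a sample name (0 unmatched).

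The platform annotation gave 21065 probe sets a single gene, 1187 several and 2548 none, and 20983 symbols were brought up to the GRCm38.p6 RefSeq table. For each of 19518 genes the probe set with the highest mean log2 intensity was used, 4 of the 54 genes having 2 probe sets. Deposited intensities were compared on the log2 scale without further scaling, and values within 1e-06 were taken as equal. Counts used 1.25-fold (0.32 on the log2 scale) and 2-fold as rules of size. No test was run, since each genotype has 1 array, and it is their number that limits precision. Members, role groups and further lists were chosen with earlier results of these data known.

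Values are given for the 3 genes of each role with the widest range over the arrays, or the 4 widest where more passed 1.25-fold between any pair of arrays, for the 2 brightest genes and for genes below the olfactory receptor level on all arrays, with other genes added where they complete a complex. Of the further lists the 3 widest were taken, and single cell type markers were named after their values were seen. Promoter windows came from RefSeq. Alternatives were quantile normalization, median centring, cyclic loess, adding 32, leaving out dim genes, averaging probe sets, thresholds of 1.1-fold and 1.5-fold, ties within 0.05, another wild-type level and a shorter list, and a floor at the olfactory receptor level was chosen after seeing the data. The counting code was checked on copies of the PLZF+/+ array with known shifts put in and no noise added, which checks the code alone. Tools were limma 3.58.1 in R 4.3.3, for cyclic loess, and Python 3.11.15 with pandas 2.3.3, numpy 2.4.6 and matplotlib 3.10.9.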

Additional observations from a re-analysis of the deposited data

How the results depend on the processing

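Of the counts and medians over the 54 genes, 103 values under an alternative stayed within 1.5 times (counts) or 0.1 on the log2 scale (medians) of the value reported and 17 did not, and of the role medians 188 stayed within 0.1 and 1 did not. Of 214 medians under an alternative 1 changed sign, that of mitotic entry for PLZFlu/lu over PLZF+/+, at 0.0087 with quantile normalization in place of -0.02. With median centring, 51 genes were strictly lowest in PLZF+/lu instead of 33, but so were 71.6% of all genes, since rescaling breaks equal values. The same count was 39 of 54 with quantile normalization, against 36.2% of all genes, and 42 of 54 with cyclic loess, against 45.8%. In each of these settings the share rose more for all genes than for the 54. The contrast with the background was therefore smaller than in the deposited values. The count above both was 4 with quantile normalization (29.3% of all genes), 2 with cyclic loess (26.8%) and 1 with the mean over probe sets (13.3%) in place of 0. The count between was 11 with quantile normalization (33.4% of all), 10 with cyclic loess (27.4%) and 1 with ties within 0.05 in place of 3. PLZF+/lu was below both by more than 0.32 on the log2 scale for between 10 and 13 genes under every rescaling, filter, floor and probe set rule tried, against at most 0.501% of all genes. At 1.1-fold, 2 genes were higher and 10 lower in PLZFlu/lu than in PLZF+/+, 22 were higher in PLZFlu/lu than in PLZF+/lu and 28 lower in PLZF+/lu than in PLZF+/+. At 1.5-fold, 0 were lower in PLZFlu/lu and 4 in PLZF+/lu than in PLZF+/+, and 3 were higher in PLZFlu/lu than in PLZF+/lu. For 1.1-fold and 1.5-fold the shares of all measured genes are not given here. These counts therefore show how far the threshold moves them, and not how the set stands against the background. With PLZF+/+ replaced by its mean with PLZF+/lu, 4 were higher by more than 0.32 on the log2 scale in PLZFlu/lu, 0 lower and 0 past 2-fold. PLZF+/lu was lower than PLZF+/+ for 40 of the 54 genes, so for these the mean is a lower reference. The move from lower to higher counts thus follows from the setting, and no share of all genes is given for it. With 32 added, 0 passed 2-fold, since Smc4 lies at the threshold. No paired analysis was possible because there is 1 array per genotype, and no array could be left out. Small differences near the olfactory receptor level, and any difference without a replicate, are limited by the single array.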

Other observations

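Replication-dependent histone genes, whose transcripts accumulate in S phase and which belong to none of the lists above, were looked at after the genes lowest in PLZF+/lu had been seen. Of 26 histone genes, chosen by symbol, 20 were strictly lowest in PLZF+/lu (76.9%), against 11.4% of all measured genes. By more than 0.32 on the log2 scale 7 were so (26.9%), against 0.338% of all measured genes. These 7 form 10.6% of the 66 genes with that pattern. They include H3c4, below the olfactory receptor level on every array, at 77.7 in PLZFlu/lu, 43.6 in PLZF+/lu and 55.5 in PLZF+/+ cells. H2bc14 was at 1697 in PLZFlu/lu, 1103 in PLZF+/lu and 1759 in PLZF+/+ cells. H4c3 was at 543 in PLZFlu/lu, 367 in PLZF+/lu and 599 in PLZF+/+ cells. H1f5 was at 659.9 in PLZFlu/lu, 463 in PLZF+/lu and 657 in PLZF+/+ cells. In H2bc14, H4c3 and H1f5, PLZF+/lu was low and the other arrays were close to each other. That was not so for all 26. By more than 0.32 on the log2 scale, PLZFlu/lu was higher than PLZF+/+ for 2 (7.69%), against 1.73% of all measured genes. It was lower for 2 (7.69%), against 2.99%. H2ac4 was at 158 in PLZFlu/lu, 59.2 in PLZF+/lu and 156 in PLZF+/+ cells, and since its PLZF+/lu value is below the olfactory receptor level, the other arrays were at least 1.45-fold higher. Histone genes are near copies of each other, so a probe set can pick up several of them. Among other genes with the pattern were Pclaf, which binds PCNA, at 828 in PLZFlu/lu, 635 in PLZF+/lu and 801 in PLZF+/+ cells, and E2f3, a further E2F activator, at 269.6 in PLZFlu/lu, 204 in PLZF+/lu and 285 in PLZF+/+ cells.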
